A study of Tuber melanosporum with 9 samples.

Results

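The RNA of all annotated genes was compared between the fruitbody (FB) and the free-living mycelium (FLM) of the black truffle *Tuber melanosporum*, an ectomycorrhizal ascomycete. The comparison used 2 of the 9 libraries of the series, 1 per side, and no gene was selected beforehand, so that the members were all 7496 genes of the deposited count table. The FLM was strain Mel28, the strain of the reference genome, which had been kept in vitro for many years. It was grown for 5 weeks on malt agar. The FB was a mature, field-collected truffle from Auvergne, used as whole tissue, and the sources used here do not give its strain. Other libraries of the series profiled DNA methylation by bisulfite sequencing in FB, FLM and ectomycorrhizae, and both RNA and DNA methylation in Mel28 grown in liquid medium. One of these liquid cultures received 100 µM 5-azacytidine (5-aza), an inhibitor of DNA methyltransferases, every 5 days for 45 days, and its untreated control received water. No allele, deletion or agent was common to FB and FLM.

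A truffle begins as a web of haploid hyphae, which live free in soil or sheath the roots of a host tree. After mating, some of these hyphae knot together into a fruitbody. The mature fruitbody is made mostly of sterile hyphae, the gleba, among which asci form and fill with dark, thick-walled ascospores after meiosis. Total RNA of a fruitbody therefore mixes hyphae of different states with spores, while an agar colony is vegetative mycelium alone. In such bulk samples, fewer cells of a type and less RNA per cell cannot be told apart. Developmental stage, origin (field or long culture in vitro), growth conditions and possibly strain differed together between FB and FLM. They cannot be told apart either. The tables used here pair no gene with a product or a marker role, apart from 6 genes that the study names, so the labelled tissues were not checked against markers and the other genes are given by identifier.

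The FB library held 23397373 reads on genes and the FLM library 23816308. The RNA integrity number was 7.0 for FB and 6.5 for FLM, and its part in the results was not tested. Values are reads per 1000000 of the library's own gene reads (CPM), so that 3 reads, the lowest number taken here to be detectable, were worth 0.128 CPM in FB and 0.126 CPM in FLM. Reads fell on 7331 genes in FB, on 7301 in FLM and on 7258 in both. Of the 7496 genes, 7173 had at least 20 reads in FB and FLM together and entered the comparison. The 323 genes under that minimum included 122 with no read in either library. With a deposited RPKM (reads per kilobase of exon per 1000000 mapped reads) above 1 as the limit for expression, 6049 genes were expressed in both stages. Another 335 passed it in the truffle alone, 509 in the mycelium alone and 603 nowhere. With 1 library per side, no difference has a replicate check and no test was possible. The 95% intervals given with levels (exact Poisson) and with ratios (exact binomial) cover counting error only.

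The gene RNA of FB and FLM differed widely. The log2 ratio of FB over FLM had an SD of 2.42 across the 7173 genes and ran from -10.46 to 11.35. The upper end rests on a gene with 2 reads in FLM, under the 3 reads taken as detectable. The quartiles of the ratio lay at -0.81 and 1.44, and its 5th and 95th percentiles at -4.12 and 3.60. Counting error was small beside this spread, since the median half-width of a gene's interval was 0.14 on the log2 scale, and the interval of 500 genes held a ratio of 1. By CPM, which imposes equal RNA totals, the median gene was not at equality. It lay at 0.42 on the log2 scale, and 4328 genes, or 60.3%, were above 0. An order-statistic interval of this median ran from 0.37 to 0.47. It takes genes as units and covers neither a difference between libraries nor the choice of scale. The median was 0.039 with factors of the trimmed mean of M values and 0.18 by deposited RPKM. It was 0.61 with the RPKM read totals exchanged between the stages, so its distance from 0 rests on the scale. The lower tail was the thicker, and the mean log2 ratio of 0.19 was below the median.

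**Figure D1:**
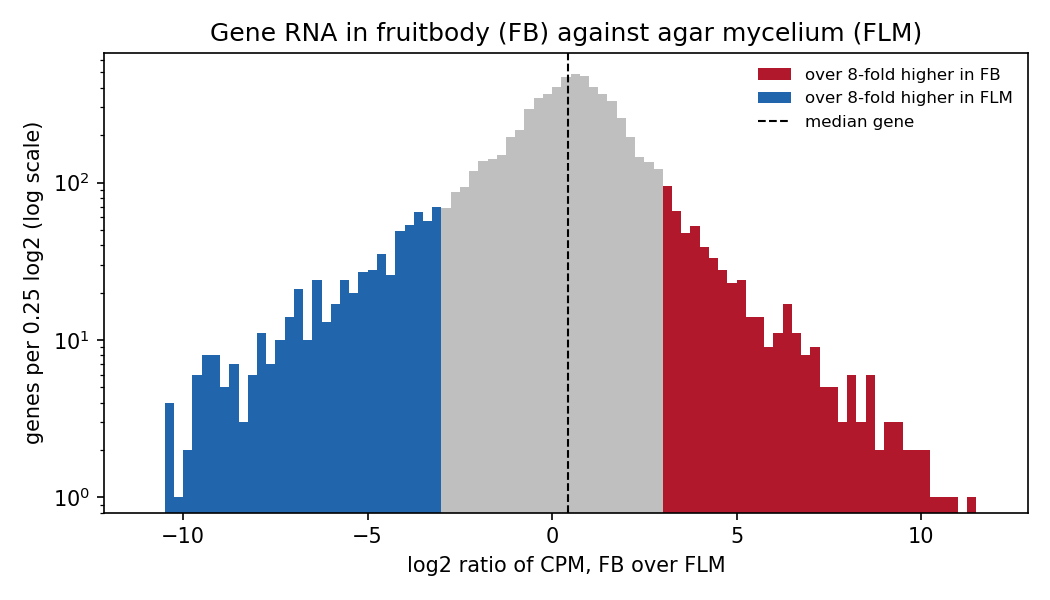
Log2 ratio of CPM in the fruitbody (FB) over agar mycelium (FLM) on the x axis, with the number of genes per 0.25 log2 on a log-scaled y axis, for the 7173 genes with at least 20 reads. Bars past 8-fold are coloured by stage (548 genes for FB, 632 for FLM), the dashed line marks the median gene at 0.42, and the tail on the FLM side is the thicker.

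More than 1 gene in 2 was over 2-fold apart between the stages. At this limit 2496 genes (34.8% of those compared) were higher in FB and 1623 (22.6%) were higher in FLM. At 4-fold the counts came closer, with 1144 genes (15.9%) higher in FB and 1000 (13.9%) in FLM. Beyond 8-fold the order turned, with 548 genes (7.64%) higher in FB and 632 (8.81%) in FLM. It stayed turned at 32-fold, with 163 (2.27%) against 248 (3.46%), and at 128-fold, with 55 (0.767%) against 92 (1.28%). The counting interval lay wholly past 8-fold for 434 of the genes higher in FB and 531 of those higher in FLM. The scale touches the balance at the lower limits: the share of genes past 2-fold that were higher in FB was 60.6% by CPM, but 48.4% with the factors of the trimmed mean of M values (TMM) and 46.9% when the median gene was set to equality. Under both of these scalings FLM held more genes than FB past each of the limits of 2-, 4- and 8-fold. With the read totals of the deposited RPKM exchanged between the stages, as the study's methods give them, 617 genes were past 8-fold in FB and 565 in FLM, so that the order at 8-fold rests on the scale. At the 8-fold limit itself, the nearest genes on the FB side had log2 ratios of 3.0024 and 2.9996.

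The genes past 8-fold carried a large part of the RNA of their stage. Those higher in FB held 28.9% of FB gene reads and 0.972% of FLM reads. Those higher in FLM held 34.7% of FLM gene reads and 1.28% of FB reads. That each set held far more of its own stage's reads than of the other's follows from the 8-fold rule. Only the size of the shares is an observation. The 3054 genes within 2-fold, 42.6% of those compared, held only 32.1% of the reads in FB and 30.5% in FLM. When the genes were put into 5 equal groups by their mean CPM over both libraries, the ratios spread most at the ends: the SD of the log2 ratio was 2.57 in the lowest group, then 2.01, 2.00 and 2.16, and 3.11 in the highest. In the highest group 12.4% of genes were past 8-fold in FB and 14.8% in FLM. The mean CPM is made of the same values as the ratio. A gene high in 1 library alone can thus enter the highest group, and part of the spread there is built in.

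A few genes took much of each library, and the leading gene differed between the stages. The gene with most reads in FB was GSTUMT00009589001, with 716757 reads or 3.06% of the library. It had 30634 CPM in FB (30563 to 30705), 109 CPM in FLM (105 to 114), 116 CPM in untreated liquid mycelium and 130 CPM in 5-aza-treated mycelium. FB thus stood 280-fold above FLM (270 to 291), and the 3 mycelia lay close to each other. The gene with most reads in FLM was GSTUMT00003504001, with 749020 reads or 3.14% of the library. Its level was 31450 CPM in FLM (31379 to 31521), 52.4 CPM in FB (49.5 to 55.4), 1267 CPM in untreated liquid mycelium and 391 CPM in 5-aza-treated mycelium. Agar mycelium was 600-fold above FB (567 to 635), and the liquid cultures lay between. This gene overlaps another gene model, so that reads of the pair may not be separated, and its depth of bisulfite-treated DNA over CG sites, relative to the library's mean, was 0.635 times as high in FB as in FLM. Their part in the result was not tested.

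The 10 genes with most reads took 11.4% of FB reads and 10.3% of FLM reads. None was in the top 10 of both. The 10 leading FB genes ran from 5722 to 30634 CPM in FB and from 10.7 to 4327 CPM in FLM, where they held 1.34% of reads. Of these, 9 were over 2-fold and 5 over 8-fold higher in FB. The 10 leading FLM genes ran from 6047 to 31450 CPM in FLM and from 16.4 to 2639 CPM in FB, where they held 0.590% of reads, and 8 of them were over 8-fold higher in FLM. The 100 leading genes held 33.1% of reads in FB and 34.8% in FLM, and the stages shared 20 of them. Of the leading 100, 51 in FB and 57 in FLM were over 8-fold higher in that stage, and 23 and 15 were within 2-fold. Over all genes compared, 7.64% were over 8-fold higher in FB, 8.81% in FLM, and 42.6% were within 2-fold. Ranking by reads in a stage itself favours genes higher in that stage, in the top 10 as in the top 100.

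Further down the ranking the FLM library was the more concentrated. It needed 267 genes for 50% of its reads and 2552 for 90%, where FB needed 351 and 3011. The 1000 leading genes held 73.7% in FLM and 67.6% in FB. Reads favour long genes, and the order of the stages in the top 100 depended on the measure. Counted by deposited RPKM, which divides by exon length, the top 10 held 15.2% in FB and 10.9% in FLM. The top 100 held 38.9% and 36.2%. Of the summed RPKM, 50% lay in 243 genes in FB and 239 in FLM, and 90% in 2938 and 2692. On that scale FB was the more concentrated in its leading 100 genes. FLM still needed fewer genes for 50% and 90%, and its leading 1000 still held more (73.7%) than those of FB (71.0%).

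**Figure D2:**
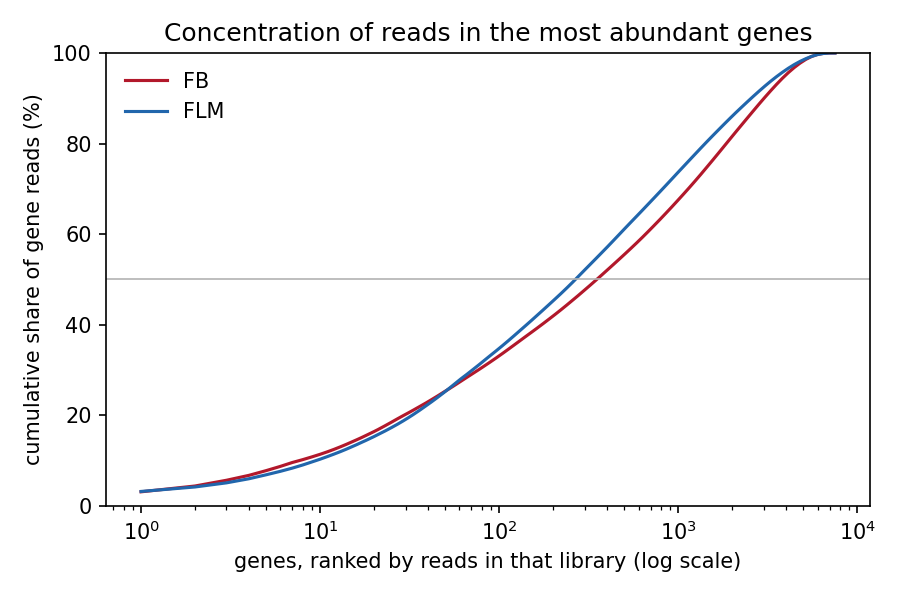
Cumulative share of gene reads in percent on the y axis against the rank of genes by reads in that library on a log-scaled x axis, 1 line per library. Both lines start near 3%, and the FLM line reaches 50% at 267 genes, before the FB line at 351.

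The highest ratio towards FB among genes with at least 100 reads was that of GSTUMT00009161001, with 5134 reads in FB, 2 in FLM, 35 in untreated liquid mycelium and 60 in 5-aza-treated mycelium. Its level was 219 CPM in FB (213 to 226) and 0.084 CPM in FLM (0.010 to 0.303), a log2 ratio of 11.35 (9.50 to 14.40). The mycelia were all low. GSTUMT00001784001 came next, with 25520 reads in FB, 13 in FLM, 17 in untreated liquid mycelium and 187 in 5-aza-treated mycelium. It was at 1091 CPM in FB (1077 to 1104) and 0.546 CPM in FLM (0.291 to 0.933), a log2 ratio of 10.96 (10.19 to 11.87). Here, too, FB stood far above each mycelium. The 2 FLM reads of GSTUMT00009161001 are under the 3 taken as detectable, and only counts of 0 were put at the floor. The intervals of the 2 genes overlap, so their order is not resolved.

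At the other end, GSTUMT00008969001 had 3 reads in FB, 4304 in FLM, 5612 in untreated liquid mycelium and 2404 in 5-aza-treated mycelium. Its level in FB was 0.128 CPM (0.026 to 0.375) against 181 CPM in FLM (175 to 186), a log2 ratio of -10.46 (-12.74 to -8.91). GSTUMT00002500001 had 6 reads in FB, 8235 in FLM, 1450 in untreated liquid mycelium and 1442 in 5-aza-treated mycelium. It was at 0.256 CPM in FB (0.094 to 0.558) and 346 CPM in FLM (338 to 353), a log2 ratio of -10.40 (-11.84 to -9.27). For both, FB was far below each mycelium.

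**Figure D3:**
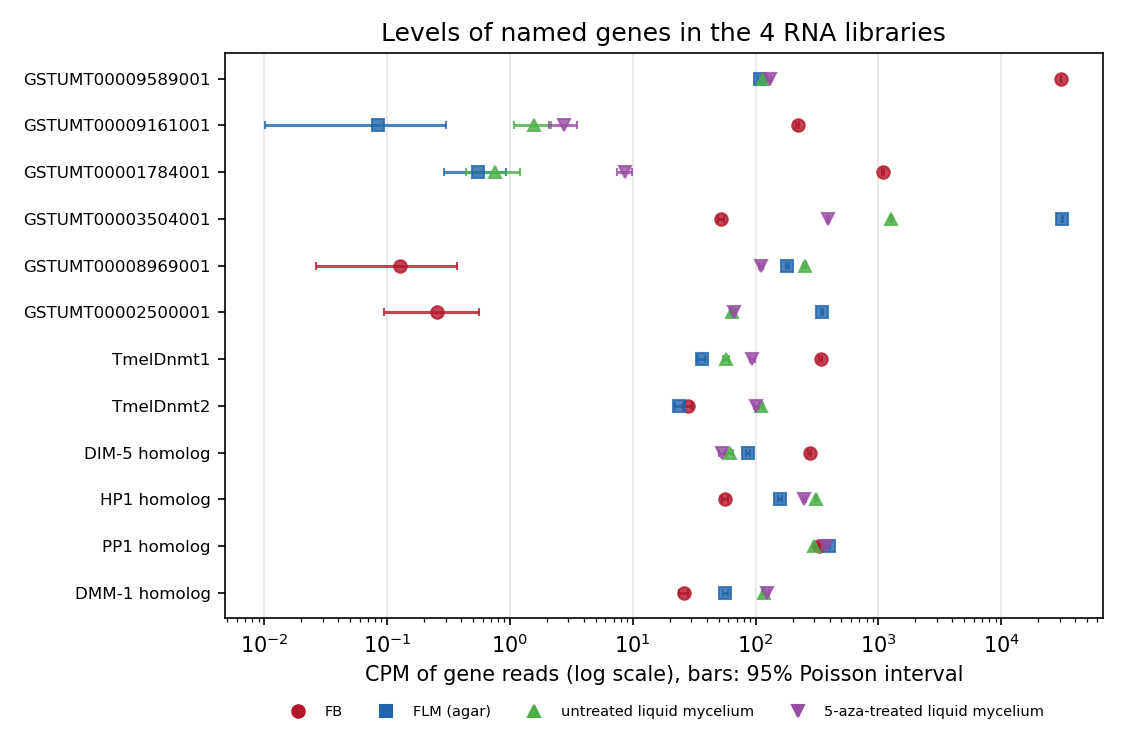
Level in CPM on a log-scaled x axis of 12 genes in FB, FLM and both liquid mycelia, with 95% Poisson intervals as bars where they exceed the symbol. The FB symbol of GSTUMT00009589001, GSTUMT00009161001 and GSTUMT00001784001 lies far to the right of the 3 mycelia, and that of GSTUMT00008969001 and GSTUMT00002500001 far to the left, while the 6 genes named by the study span a much narrower range.

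Genes with at least 100 reads in one stage and at most 3 in the other were taken as stage-restricted. By this rule 23 genes (0.307% of 7496) were restricted to FB and 31 (0.414%) to FLM. The FB-restricted genes had 103 to 5134 reads in FB, with a median of 409, and 10 of them had no read in FLM. The FLM-restricted genes had 107 to 4304 reads in FLM, with a median of 244, and 8 had no read in FB. The groups differed in the cultures that the rule did not use. In untreated liquid mycelium none of the 23 FB-restricted genes reached 100 reads, and they ran from 0 to 35 with a median of 4. Of the 31 FLM-restricted genes, 20 reached 100 reads there, 5 had at most 3, and the median was 154. The 5-aza-treated culture gave a median of 8 reads (0 to 60) for the former and 184 (0 to 786963) for the latter, 17 of which reached 100. In untreated liquid mycelium the median level was 0.178 CPM for FB-restricted genes and 6.86 CPM for FLM-restricted genes. Over all genes compared it was 66.6 CPM, with a lower quartile of 26.9 CPM, so the median of both groups lay below that of most genes. The restricted genes were short, with a median exon length of 934 bp in FB and 1048 bp in FLM against 1545 bp over all genes compared, and a rule on reads finds fewer reads on short genes. Some are numbered next to a very abundant gene on the same scaffold. Examples are a model of 89 bp by GSTUMT00009589001 in FB and a model of 194 bp by GSTUMT00003504001 in FLM. Whether such models hold reads of their neighbour was not tested.

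Among restricted genes, 3 were chosen after their values were seen. GSTUMT00006593001 had 3 reads in FB and 1732 in FLM, but 392399 in untreated liquid mycelium and 786963 in the 5-aza-treated culture. It was at 0.128 CPM in FB and 72.7 CPM on agar, and in liquid at 17482 CPM (17427 to 17537) without and 36095 CPM (36015 to 36175) with 5-aza. The level in liquid was thus far above that on agar, within 1 strain. GSTUMT00001195001 had 3 reads in FB, 266 in FLM, 223 in untreated liquid mycelium and 198 with 5-aza, and was 87.1-fold higher in FLM than in FB (29.5 to 425). In the bisulfite libraries its CG sites had 5151 reads in FLM and 0 in FB, so that the FB DNA gave no coverage of these sites. GSTUMT00008416001 had 147 reads in FB, 0 in FLM, 10 in untreated liquid mycelium and 6 with 5-aza. Against a floor of 3 reads in FLM, it was 49.9-fold higher in FB, and its counting interval had a lower limit of 40.1-fold.

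GSTUMT00008416001 was also exceptional in its methylation. Its 142 CG sites were methylated at 0.444% in FB (4625 reads) and 24.4% in FLM (6201 reads). Over the 7152 genes with CG methylation in both stages, only this gene and GSTUMT00009672001 differed by more than 10 percentage points. The latter was at 0.468% in FB and 21.2% in FLM, and its RNA had 140 reads in FB, 193 in FLM, 176 in untreated liquid mycelium and 182 with 5-aza.

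For genes at large, gene body CG methylation was low and alike in the groups. Its median in FB was 0.477% for genes over 8-fold higher in FB, 0.483% for those over 8-fold higher in FLM and 0.485% for all genes compared. In FLM these medians were 0.267%, 0.262% and 0.268%. In all, 20 genes were above 10% in either stage, of which 4 were past 2-fold in FB and 5 in FLM, beside 34.8% and 22.6% of all genes compared. Transposable elements, the main seat of DNA methylation in this genome, lay within 1 kb of 13.2% (10.5 to 16.4, exact binomial) of genes past 8-fold in FB and 13.2% (10.6 to 16.1) of those past 8-fold in FLM, beside 15.5% of all genes.

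Genes past 8-fold often lay side by side. Of the 544 such genes higher in FB that have a position, 229 (42.1%) had an adjacent gene that was also over 8-fold higher in FB, as did 686 of the 6615 other genes compared (10.4%). For FLM the figures were 308 of 630 (48.9%) and 735 of 6529 (11.3%). Close neighbours may share reads or be pieces of 1 transcript. When adjacent genes had to be over 1 kb apart, the shares were 22.4% against 7.27% for FB and 36.0% against 9.45% for FLM, and without overlapping gene models they were 40.9% against 10.3% and 49.0% against 11.2%. At 4-fold, the shares were 48.3% against 22.1% for FB and 50.7% against 18.0% for FLM. Adjacent genes are not independent and no test was made.

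**Figure D4:**
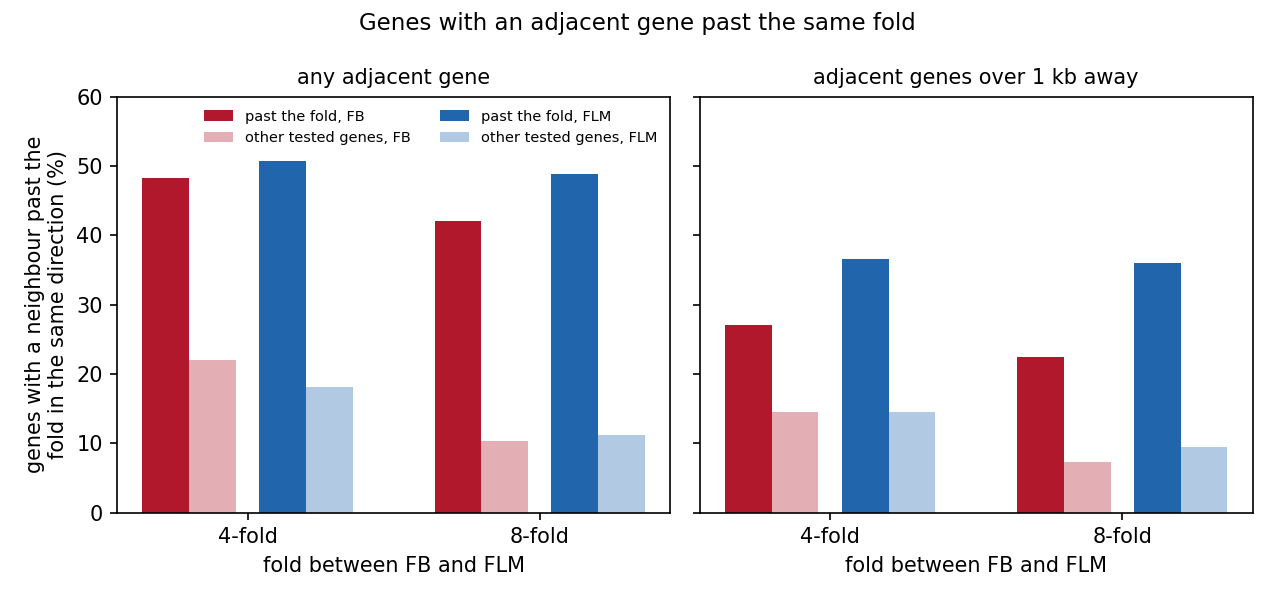
Percent of genes with an adjacent gene past the same fold in the same direction on the y axis, for genes past 4-fold and 8-fold (dark bars) and for all other genes compared (pale bars), for FB and FLM. With any adjacent gene (left) the 8-fold bars stand at 42.1% against 10.4% for FB and 48.9% against 11.3% for FLM, and with neighbours over 1 kb away (right) at 22.4% against 7.27% and 36.0% against 9.45%.

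Runs of 3 or more adjacent genes past 8-fold numbered 24 with 87 genes in FB and 34 with 122 genes in FLM. The longest in FLM had 5 genes. The longest in FB, described after its values were seen, had 8 genes, GSTUMT00000542001 to GSTUMT00000550001 on a single scaffold, which took up 8 of the scaffold's 11 genes and spanned 51124 bp with no overlapping models. A gap of 27124 bp after GSTUMT00000546001 took up most of that span, while GSTUMT00000549001 and GSTUMT00000550001 lay 8 bp apart, so that reads of this pair may not be separated. Their folds ran from 8.62 to 85.6 with a median of 13.3. GSTUMT00000546001 had most reads of the run, with 99684 in FB (4260 CPM), 2837 in FLM (119 CPM), 4964 in untreated liquid mycelium and 3878 with 5-aza. GSTUMT00000543001 had the largest fold, with 1766 reads in FB, 21 in FLM, 98 in untreated liquid mycelium and 57 with 5-aza. In each of the 8 genes FB was above every mycelium, and agar mycelium was the lowest of the 4 libraries. The run was picked by its ratio of FB over FLM, which favours a low value in agar mycelium. The run ended abruptly on one side, where the log2 ratio of the next gene was 0.70, and less so on the other, where it was 2.00.

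**Figure D5:**
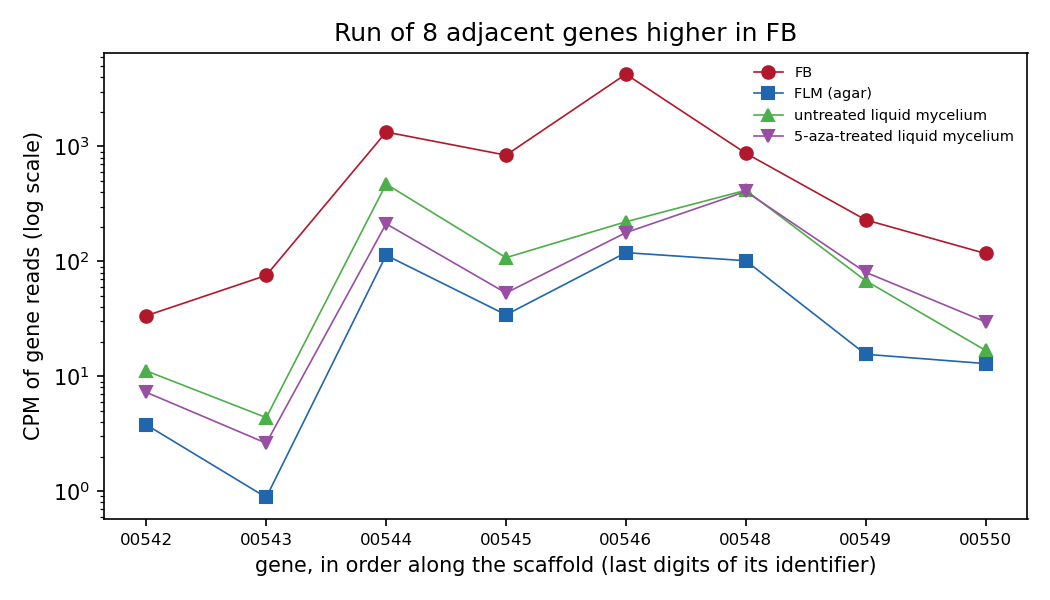
Level in CPM on a log-scaled y axis of the 8 adjacent genes, in order along the scaffold, in 4 libraries. The FB line runs from 33.6 to 4260 CPM above the others, and the FLM line from 0.882 to 119 CPM below them. The genes were picked by their ratio of FB over FLM, which favours this order of the FB and FLM lines.

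Levels in liquid mycelium, which the ratios did not use, differed between the groups. Genes over 8-fold higher in FB had a median of 117 CPM in FB, 4.79 CPM in FLM, 13.7 CPM in untreated liquid mycelium and 14.9 CPM with 5-aza. Those over 8-fold higher in FLM had a median of 3.14 CPM in FB, 113 CPM in FLM, 69.5 CPM in untreated liquid mycelium and 65.8 CPM with 5-aza. For all genes compared the medians were 50.7, 36.0, 66.6 and 69.0 CPM. Mycelium in liquid thus had low levels of the FB genes and about the typical level of the FLM genes. Of all reads in untreated liquid mycelium, 2.93% fell on the former and 17.2% on the latter, against 2.96% and 17.4% with 5-aza. GSTUMT00006593001, among the latter, alone held 1.75% of gene reads in the untreated culture and 3.61% with 5-aza. The near-equal shares of the FLM genes in the 2 cultures thus depend on this gene. With the genes in 5 equal groups by their level in untreated liquid mycelium, the median log2 ratio fell from 0.81 in the lowest group to -0.29 in the highest.

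Length and base composition moved with the ratio. In 5 equal groups from the shortest exons to the longest, the median log2 ratio was 0.56, 0.65, 0.46, 0.37 and 0.17. The longest genes also had the narrowest spread, with an SD of 2.02 against 2.51 in the shortest, and fewer of them were past 8-fold in either stage. Genes past 8-fold in FB were 9.47%, 7.74%, 9.34%, 7.60% and 4.04% of the groups, and those past 8-fold in FLM were 9.05%, 9.48%, 9.41%, 9.55% and 6.56%. By the share of C and G in the gene, taken from the cytosines that the bisulfite libraries list on both strands, the median rose through all 5 groups, from 0.07 and 0.26 through 0.41 and 0.56 to 0.90. The median gene, at 0.42, is the reference for these values. Divided by both at the median, short GC-rich genes were at 0.79, long GC-rich genes at 0.57, short GC-poor genes at 0.30 and long GC-poor genes at 0.08. Library preparation and RNA integrity can also depend on length and base composition, and with 1 library per side their part in the result was not tested.

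DNA coverage moved with the ratio for a small set of genes. For 227 of 7157 genes, on 17 scaffolds, the depth of bisulfite reads on CG sites, relative to the library's mean, was under 0.7 times as high in FB as in FLM, while the median over all genes was 1.06 times. The median log2 RNA ratio of the 227 was -0.67, with quartiles at -2.35 and 0.32, beside 0.46 for the other 6930. Of the 227, 43.2% were over 2-fold and 21.1% over 8-fold higher in FLM, against 22.0% and 8.40% of the others, and 2.20% against 7.78% were over 8-fold higher in FB. These genes made up 48 of the 630 genes past 8-fold in FLM with a value (7.62%) and 5 of 544 in FB (0.919%). The paper called regions of differing copy number from the coverage of these bisulfite libraries, and most were amplified in FLM. Most were found again in FLM DNA sequenced without bisulfite. Whether the 227 genes lie in those regions was not checked. The genes sit on few scaffolds and are not independent, and whether copy number, strain or coverage plays a part was not tested.

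The 6 genes of the DNA methylation machinery that the study names held a median log2 ratio of -0.01, with 2 past 2-fold towards FB, 2 towards FLM and 2 within 2-fold, near the 34.8%, 22.6% and 42.6% of all genes compared. TmelDnmt1, the DNA methyltransferase GSTUMT00012206001, had 7906 reads in FB, 867 in FLM, 1286 in untreated liquid mycelium and 2046 with 5-aza, a log2 ratio of 3.21 (3.11 to 3.32). The homolog of DIM-5, the histone H3 methyltransferase that directs DNA methylation in *Neurospora*, was at 1.67. TmelDnmt2 was at 0.24 by CPM, but at -0.14 with TMM factors and at -0.0012 by deposited RPKM, so that its direction rests on the scale. The homolog of HP1, which binds methylated histone H3, was at -1.49. That of DMM-1, which limits the spread of DNA methylation in *Neurospora*, was at -1.13, and that of the phosphatase PP1 at -0.27. The PP1 homolog is among the genes with a DNA depth ratio of FB over FLM under 0.7 (0.686), and the part of this was not tested.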

How the data were processed

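RNA libraries (TruSeq, 50 nt single-end reads) were aligned by the authors with TopHat2 2.0.4, allowing up to 2 mismatches and keeping unique alignments, and HTSeq 0.5.4p3 was used for counting; DESeq 2.12 and 2.13 are listed as well. Strand is not stated. The deposited table gives whole-number counts per gene and deposited RPKM values; 3 columns of the authors' own comparison (log ratio, p and adjusted p) were not used. The read totals behind the deposited RPKM, 74109065 for FB and 63742213 for FLM, are in the opposite order to those in the methods, so counts scaled to the gene total were used (gene reads were 31.6% and 37.4% of those totals).

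Ratios were computed for genes with at least 20 reads over both libraries, with a floor of 3 reads for a count of 0, in Python 3.11.15 with numpy 2.4.6, pandas 2.3.3 and scipy 1.17.1; TMM factors came from edgeR 4.0.16. The scripts were tested on simulated data. Gene CG methylation is the mean, over the CG sites of the gene span with at least 4 reads in that library, of the share of methylated reads in the deposited counts of methylated and total reads per cytosine, for genes with at least 4 such sites. The DNA depth ratio of a gene is its CG reads in FB over those in FLM, each divided by the library's mean depth per CG site. Gene order came from RefSeq (ASM15164v1), which matched 7420 of 7496 genes; no sequence was printed, and the lists by key word and the meiosis markers could not be applied because no product names were given. Members, lists and rules were chosen with earlier results of these data known. Named genes were the 2 with the highest and the 2 with the lowest ratio among genes with at least 100 reads, the gene with most reads in each library and 6 genes named by the study; others are said to be chosen after their values were seen. Alternatives were other scalings, minima, thresholds and RPKM, and no test was run with 1 library per side.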

Additional observations from a re-analysis of the deposited data

Results flagged for a closer look

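Outside the comparison of FB with FLM, 9 of the 323 genes with under 20 reads in those libraries together had at least 100 reads in untreated liquid mycelium, a library the comparison did not use. The highest, GSTUMT00007462001, had 4 reads in FB, 8 in FLM, 476 in untreated liquid mycelium and 281 with 5-aza. GSTUMT00009687001 had 0 reads in FB, 6 in FLM, 332 in untreated liquid mycelium and 2158 with 5-aza. Both were named after their values were seen, and the difference was not tested.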

How the results depend on the processing

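With 1 library per side, every count of genes past 2-, 4- or 8-fold stayed within 1.5 times its main value under the alternatives run, and the SD of the log2 ratios ran from 2.39 to 2.42. The median log2 ratio was 0.039 with TMM factors, 0 by construction when centred, 0.18 with deposited RPKM and 0.61 with the RPKM read totals exchanged, an alternative added after seeing the data. The share of genes past 2-fold that were higher in FB was 48.4% with TMM factors and 46.9% centred. The 8-fold counts for FB and FLM were 412 and 752 with TMM factors, 404 and 763 centred, 440 and 676 with RPKM, and 617 and 565 with the totals exchanged, where the order of the stages turned. Restricted genes numbered 40 in FB at a minimum of 50 reads, 10 (FB) and 8 (FLM) against 0 reads, and 52 and 97 by RPKM above 1 against below 0.1. Read concentration by RPKM was 15.2% and 38.9% in the top 10 and 100 genes of FB, and 10.9% and 36.2% in FLM. For genes past 4-fold in FB, the median share of C and G was 50.3%, the median level in untreated liquid mycelium 30.0 CPM and the share with a neighbour in the group 48.3%; with neighbours over 1 kb away, also added after seeing the data, the shares past 8-fold were 22.4% in FB and 36.0% in FLM. Of 111 alternative values for 56 genes, 2 changed sign, both of TmelDnmt2, which was within 2-fold: its log2 ratio was -0.14 with TMM factors and -0.0012 with deposited RPKM. No paired analysis was possible because each side had 1 library. A difference between libraries of one stage was not measured, and genes under 20 reads are not resolved at this depth.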
